A study of Canis lupus familiaris with 4 samples.

Results

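CXCL8, known by the older symbol IL8, is a chemokine of the CXC family that draws neutrophils into tissue and activates them. It binds the receptors CXCR1 and CXCR2 and is also known to promote the growth of new vessels. Epithelial cells, macrophages, fibroblasts and endothelial cells make little of it at rest and release much more after exposure to interleukin-1, TNF or bacterial products, which act through NF-kB, AP-1 and the p38 MAP kinase. In tumours of several species it is studied as a link between cancer cells and infiltrating myeloid cells.

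The values below are those of CXCL8 in a comparison of grade 3 with grade 1 canine mammary tumours. It is 1 of 925 named genes tested. It was measured by every non-control probe whose accession is the dog RefSeq mRNA of CXCL8, which are 4 of 43603 such probes, each printed as 1 spot. The gene was chosen by its ratio of grade 3 over grade 1, the lowest among the named genes of these same arrays. That ratio and the levels behind it are therefore a description, with no test, and nothing is supported with them.

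Each of 4 two-colour Agilent arrays was hybridised with RNA of both grades, the highest malignancy grade (grade 3) and the less malignant grade 1. On 2 arrays, numbered replicates 1 and 2, the RNA of grade 3 was labelled with Cy5 and that of grade 1 with Cy3. The dyes were exchanged on the other 2, also numbered 1 and 2. The titles name tumours of each grade. The protocols in the labels instead describe cancer cell lines stained with a dye, overlaid with monocytes, kept together for a minimum of 72 h and separated by sorting into stained cancer cells and unstained macrophages, and this applies to both grades. Which of these the RNA came from is not settled, and neither the dogs nor the cell lines are named. The labels call the arrays biological replicates but do not say which of them share an RNA extract, so p-values reflect the spread among the 4 hybridisations and no more, and that spread may be technical.

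All 4 arrays lay on 1 slide. Between 80.6% and 84.5% of probes per array and grade were well above background, and 35410 probes that passed on all 4 arrays in at least 1 grade were tested. Of these, 31.1% were higher and 30.5% lower in grade 3 at a Benjamini-Hochberg adjusted p under 0.05 (limma). A gene name could be given to 1648 probes, and 925 named genes were tested, each by its brightest probe. Spike-in controls, which are RNAs added in known amounts, had a mean log2 ratio of grade 3 over grade 1 of -0.67. Scaling to them moved the median log2 fold change of all probes to 0.67, against 0.0045 without it, so each change reported is a change relative to the other probes on its array.

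The probe A_11_P0000019918 gave median spot signals of 2229 and 2293.5 intensity units in grade 3 labelled with Cy5 and 1570 and 1733 in grade 3 labelled with Cy3. In grade 1 the same spot read 34550 and 34076.5 units with Cy3 and 44403 and 49159 with Cy5. Every grade 1 value exceeded every grade 3 value, and in both grades the Cy5 readings were the higher ones. The gene was chosen for its low ratio, so the lack of overlap, here and for its other probes, comes with the choice. The share of all probes whose grades do not overlap is not given, so this is no result about CXCL8. In RNA drawn from many cells, whatever their source, fewer cells that make CXCL8 and less CXCL8 RNA per cell cannot be told apart.

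The probe A_11_P053416 read 713, 666, 441 and 528 units in grade 3, in the order replicates 1 and 2 with grade 3 in Cy5 and then replicates 1 and 2 with grade 1 in Cy5. On the same arrays it read 10386, 10490, 17063 and 17693 units in grade 1. The grades lay far apart on each array and did not overlap between arrays.

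The probe A_11_P053586 read 645, 615, 406 and 457 units in grade 3 on the arrays in that order. In grade 1 it read 13445, 13796.5, 24535.5 and 24997 units. Its grade 1 readings with Cy5 stood well above those with Cy3, more so than for A_11_P0000019918.

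The probe A_11_P054906 read 1444, 1391, 921.5 and 1004 units in grade 3 and 19323, 20683, 31882.5 and 31491 units in grade 1. As with the other 3 probes, the lowest grade 1 reading lay above the highest grade 3 reading.

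All 32 readings counted as well above background, none carried an outlier mark and none was saturated. Over the 4 probes and 4 arrays the signal was 11.9 to 60.2 times the local background in grade 3, with a median of 25.4. In grade 1 it was 297 to 1214 times the local background, with a median of 610. The brightest grade 3 reading was 0.295% of the scanner's saturation value, and the grade 1 readings were 1.33% to 6.32% of it. CXCL8 was thus measured above background in both grades, and no value is only a bound.

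**Figure D1:**
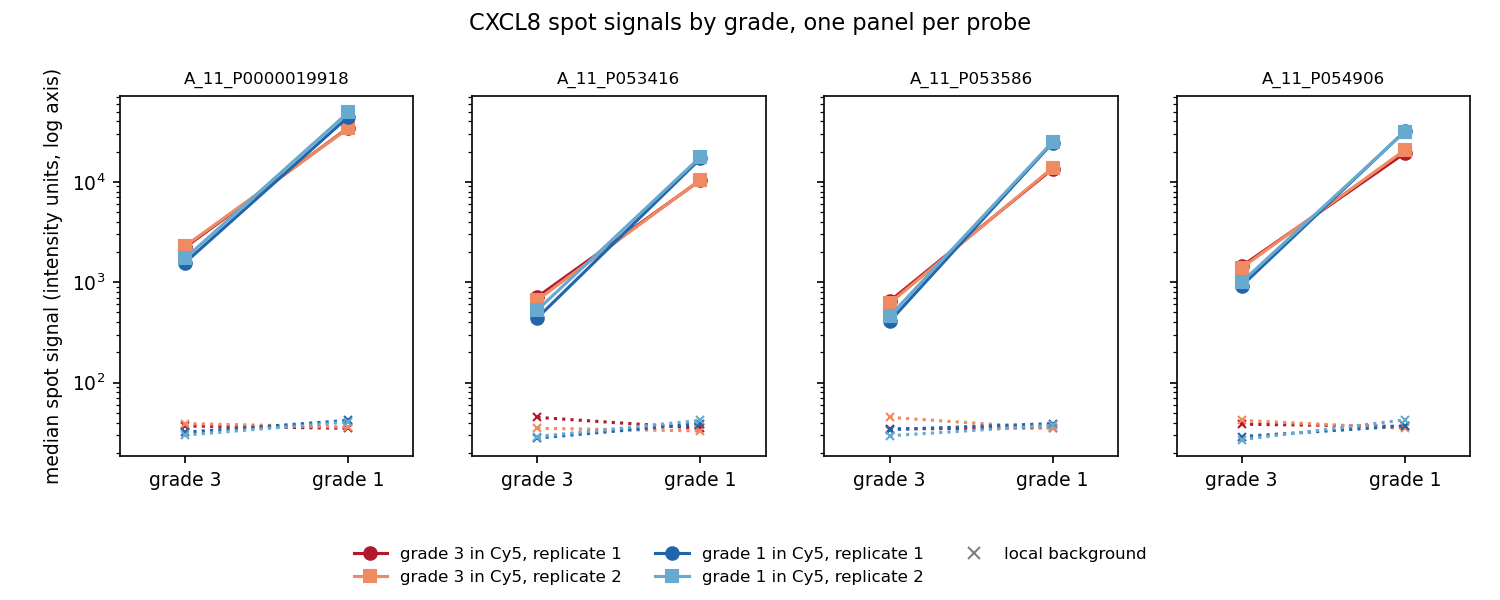
Median spot signal (intensity units, log axis) of each CXCL8 probe in grade 3 and grade 1, one panel per probe and one line per array, with the local background of each spot as crosses on dotted lines. All grade 3 spots lie between 406 and 2293.5 units and all grade 1 spots between 10386 and 49159, while the local backgrounds lie between 27 and 45.

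After background correction and loess, A_11_P0000019918 had log2 ratios of grade 3 over grade 1 of -5.09 and -4.74 on the arrays with grade 3 in Cy5 and -4.97 and -5.01 on those with grade 1 in Cy5. Their mean was -4.95 ± 0.15 (SD, n = 4 arrays), which is 31.0-fold lower in grade 3, with single arrays between 26.8-fold and 34.0-fold. This is the brightest probe and the one that stands for the gene where a single value is used. The arrays of both dye orientations overlapped for it.

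A_11_P053416 had log2 ratios of -4.91, -4.70, -5.45 and -5.32, in the array order used above, with a mean of -5.09 ± 0.35 (SD, n = 4). This is 34.1-fold lower in grade 3, with single arrays between 25.9-fold and 43.6-fold. A_11_P054906 had log2 ratios of -4.83, -4.70, -5.29 and -5.20, with a mean of -5.01 ± 0.28 (SD, n = 4), or 32.1-fold lower. For both probes the ratios were closer to 0 on the arrays with grade 3 in Cy5 than on those with grade 1 in Cy5, without overlap.

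A_11_P053586 had the most negative log2 ratio of the 4 probes on each array, at -5.41, -5.23, -6.10 and -6.02. Its mean was -5.69 ± 0.43 (SD, n = 4), or 51.6-fold lower in grade 3, with single arrays between 37.6-fold and 68.6-fold. For each of the 4 probes the value closest to 0 came from replicate 2 with grade 3 in Cy5. The mean of the 4 probes was -5.06 and -4.84 with grade 3 in Cy5 and -5.45 and -5.39 with grade 1 in Cy5, on average -5.18 ± 0.29 (SD, n = 4) or 36.4-fold lower.

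As normalized log2 levels, A_11_P0000019918 stood at 10.63 ± 0.14 in grade 3 and 15.59 ± 0.08 in grade 1 (SD, n = 4 arrays each). A_11_P053416 stood at 8.92 ± 0.19 in grade 3 and 14.01 ± 0.16 in grade 1. The levels of A_11_P053586 were 8.77 ± 0.21 in grade 3 and 14.46 ± 0.23 in grade 1, and those of A_11_P054906 were 9.91 ± 0.19 in grade 3 and 14.92 ± 0.10 in grade 1. Each probe binds with its own strength, so the levels of different probes have no common scale and were not set against each other.

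**Figure D2:**
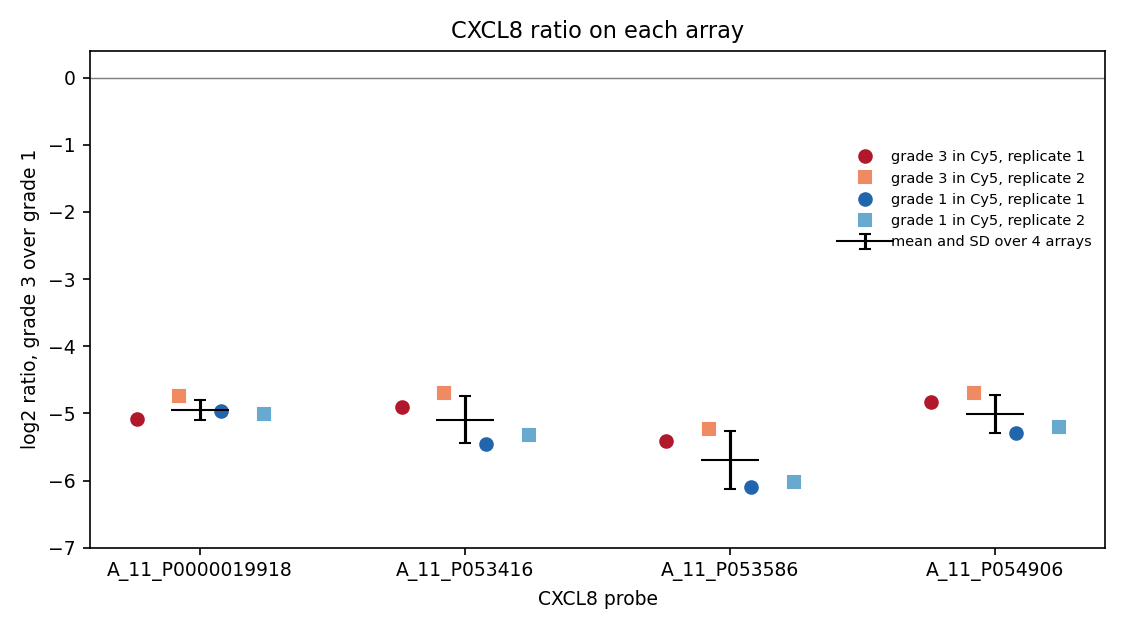
Log2 ratio of grade 3 over grade 1 of the 4 CXCL8 probes on each of the 4 arrays, with the mean and SD over arrays as a black bar. All 16 values lie between -6.10 and -4.70, and for every probe except A_11_P0000019918 the arrays with grade 1 in Cy5 lie below those with grade 3 in Cy5.

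Both probes and arrays contributed spread, and the widest spans were those between probes on the arrays with grade 1 in Cy5. On a single array the 4 probes spanned 0.57 and 0.54 log2 units with grade 3 in Cy5 and 1.13 and 1.00 with grade 1 in Cy5. A single probe spanned 0.34 (A_11_P0000019918), 0.75 (A_11_P053416), 0.87 (A_11_P053586) and 0.59 (A_11_P054906) log2 units over the arrays of both dye orientations. Among 36 named genes with at least 4 tested probes, the range of fold changes between probes had a median of 0.31 log2 units and ran from 0.055 to 4.15. CXCL8 had a range of 0.74 and 25 of the 36 genes a smaller one, while 26 of them had one sign on all their probes, as CXCL8 did.

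The size of the ratio depended on the signals it was taken from. The uncorrected median signals gave means of 20.7-fold, 23.4-fold, 35.3-fold and 21.6-fold lower in grade 3 for the probes A_11_P0000019918, A_11_P053416, A_11_P053586 and A_11_P054906. The deposited Feature Extraction ratios, which are background-subtracted and dye-normalized, gave 32.3-fold, 40.3-fold, 59.0-fold and 34.8-fold lower for the probes in that order. The error that Feature Extraction assigned to single CXCL8 ratios was 0.149 to 0.192 on the log10 scale. Before any correction the smallest fold on a single array was 13.4, for A_11_P054906. A_11_P053586 gave the most negative mean with both sets of signals.

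Set against all tested probes, which is again a description of the contrast that chose the gene, the CXCL8 probes held the 4 lowest fold changes of 35410. On single arrays they ranked between 1st and 5th from the lowest. A log2 fold change of -4 or less was found for 6 probes, of which 4 were those of CXCL8, while 13 probes reached -3 and 69 reached -2. The 1st and 99th percentiles of all probes were -1.22 and 1.14, the median size of a fold change was 0.19 and the highest value was 4.55. The SD of the log2 ratios of all probes was 0.44 to 0.47 per array.

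**Figure D3:**
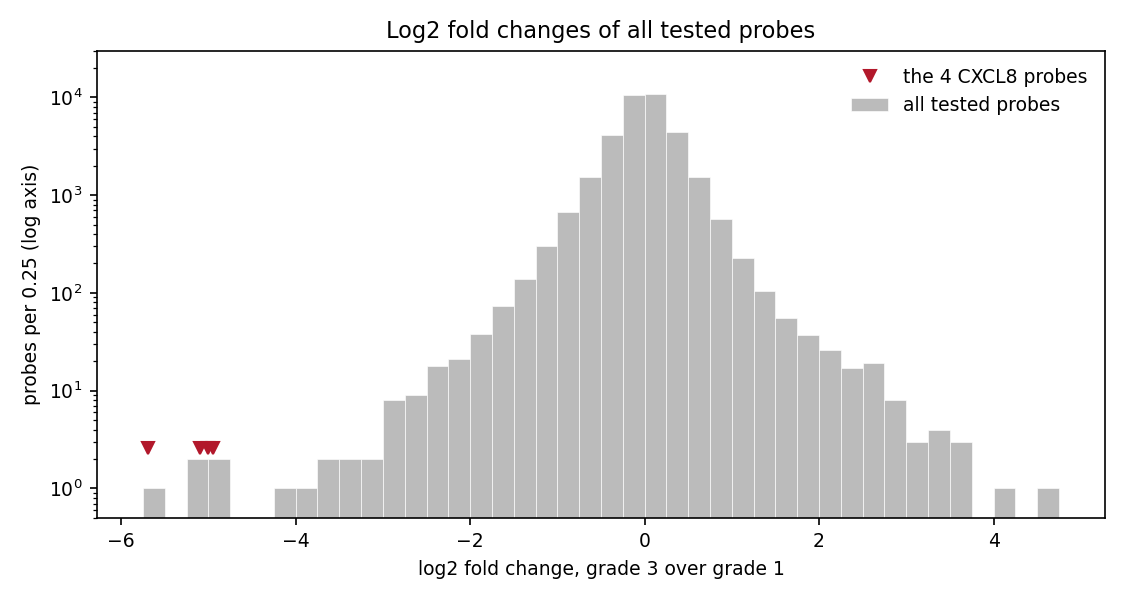
Number of tested probes (log axis) by log2 fold change of grade 3 over grade 1, in bins of 0.25, with the 4 CXCL8 probes as red triangles. The CXCL8 probes lie between -5.69 and -4.95, where the 1st percentile of all probes is -1.22.

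The dye swap allowed one measure that did not choose the gene, the dye term, fitted as the brightness of a probe in Cy5 over Cy3. It rests on the gap between the arrays of both orientations. Which arrays share an RNA extract is not stated, so a difference in RNA between orientations cannot be told apart from a dye effect. A_11_P053586 had a dye term toward Cy5 of 0.37 ± 0.05 log2 units (SE, n = 4 arrays, limma adjusted p = 0.00416). A_11_P053416 had a dye term of 0.29 ± 0.05 (limma adjusted p = 0.010) and A_11_P054906 one of 0.24 ± 0.05 (limma adjusted p = 0.0139). A_11_P0000019918 had 0.04 ± 0.06 (limma adjusted p = 0.693). So 3 of the 4 probes passed the test toward Cy5, where 10.8% of all tested probes did so and 9.1% passed toward Cy3. The 4 probes target 1 mRNA and share their RNA, so they are not 4 independent cases.

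The median size of the dye term over all tested probes was 0.084 and its 90th percentile 0.23. In the other view of the same term, the mean log2 ratio differed between orientations by 0.08 for A_11_P0000019918, 0.58 for A_11_P053416, 0.74 for A_11_P053586 and 0.48 for A_11_P054906. Within the orientation with grade 3 in Cy5 the means were -4.91, -4.80, -5.32 and -4.77, and within the one with grade 1 in Cy5 they were -4.99, -5.38, -6.06 and -5.24, in the same probe order. The 3 calls were lost with the Feature Extraction signals and with the deposited value table, which holds the same ratios. They were also lost with plain subtraction of the local background and with local backgrounds left as measured. In these settings the dye terms were 0.24 to 0.57. Over all alternatives the limma adjusted p of the 3 ranged from 0.000126 to 0.682. The call of A_11_P054906 was also lost with spike-in scaling (0.29), with an offset of 1 (0.25), without replicate 1 with grade 1 in Cy5 (0.22) and without replicate 2 of that orientation (0.26). The grade ratios were negative by more than 4 log2 units in each orientation, and they are the values that chose the gene.

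The 5 named genes whose ratios on the 4 arrays were most like those of CXCL8 were found by the root mean square difference from its brightest probe, over 923 named genes. They were picked by their ratios of grade 3 over grade 1, so being lower was set by the choice. Their fold changes and adjusted p are a description, and nothing is supported with them. CNGA1, a subunit of the cyclic nucleotide-gated channel of rod photoreceptors, came closest with a difference of 1.69 log2 units. Its log2 ratios were -3.21 and -3.19 with grade 3 in Cy5 and -3.29 and -3.38 with grade 1 in Cy5, and its log2 fold change was -3.27 ± 0.05 (SE, n = 4), or 9.63-fold lower in grade 3 (limma adjusted p = 1.03e-10). Its other probe gave -2.68. The size depended on the background correction, with -2.22 where local backgrounds were left as measured and -3.96 with the Feature Extraction signals, both called.

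SLC15A1, a proton-coupled peptide transporter best known from the intestine, followed at a difference of 2.33 and was 6.21-fold lower (limma adjusted p = 1.14e-09). MMP3, a matrix metalloproteinase, stood at 2.49. ADGRE3, an adhesion receptor of myeloid cells in humans, stood at 2.77 and was 4.55-fold lower (limma adjusted p = 1.75e-09). With local backgrounds as measured the log2 fold changes were -1.86 for SLC15A1 and -1.57 for ADGRE3, still called. IL1B, the cytokine interleukin-1 beta, stood at 2.78.

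Among all 35372 other probes compared, one without a gene name, listed as DN391919, differed from CXCL8 by 0.16 log2 units. It read 218, 175.5, 172.5 and 162.5 units in grade 3 and 3607.5, 3121, 4740 and 5506.5 units in grade 1, in the array order used above, and its log2 ratios were -4.92, -4.69, -4.87 and -5.27. Its dye term was 0.13 (limma adjusted p = 0.211). The next, ENSCAFT00000015179, also unnamed here, differed by 0.75 and had a log2 fold change of -4.21. They are the only other 2 probes at or below -4.

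In the gene order of the reference assembly UU_Cfam_GSD_1.0, the nearest named genes were RASSF6 on one side of CXCL8 and PPBP, another CXC chemokine, on the other. Neither had a named probe. No coordinates are given, since the array was designed on canFam2.

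The pathway around CXCL8 was described with lists of genes by role, each read against the named genes as a whole, of which 24.1% were higher and 46.1% lower in grade 3, with a median log2 fold change of -0.09. With spike-in scaling 32258 of all 35410 tested probes were called higher and 917 lower, and the median of all probes was 0.67. Counts and values given below for that setting carry this shift of all probes. Of 15 other CXC ligands listed, 2 could be measured, and both were lower in grade 3. CXCL10, which attracts activated T cells, had log2 ratios of -0.60, -0.67, -0.56 and -0.69 and was 1.54-fold lower (-0.63 ± 0.05 SE, n = 4, limma adjusted p = 3.19e-06). CXCL12, which retains and guides stem cells and leukocytes, was 1.61-fold lower (-0.69 ± 0.05 SE, n = 4, limma adjusted p = 2.15e-06). With spike-in scaling neither was called, at 0.04 for CXCL10 and -0.02 for CXCL12. The other neutrophil-attracting ligands, among them CXCL1, CXCL5 and PPBP, were not analysed here.

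Of the 3 listed receptors only CXCR2 could be measured, and it was well above background in both grades on all arrays. CXCR2, the neutrophil receptor that binds CXCL8 and its relatives, had log2 ratios of -0.24, -0.16, -0.36 and -0.39. It was 1.22-fold lower in grade 3 (-0.29 ± 0.05 SE, n = 4, limma adjusted p = 0.000442), but the call was lost with local backgrounds as measured (-0.14) and the direction turned with spike-in scaling (0.38). The turned value lay below the median of 0.67 of all probes under spike-in scaling.

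Of 27 upstream cytokines, sensors and adaptors listed, 11 were measured, of which 8 were lower, 1 higher and 2 not called, with a median log2 fold change of -0.34 that turned to 0.325 with spike-in scaling. With local backgrounds as measured 3 were lower, and without replicate 2 with grade 1 in Cy5 2 were higher. IL1B, a main inducer of CXCL8, was not well above background in grade 3 on any array and was well above it in grade 1 on all 4. In the reported processing it was at least 4.32-fold lower in grade 3 (limma adjusted p = 1.12e-09), a bound taken against the lowest signal well above background. Its log2 ratios, in which grade 3 is at background, were -2.10, -1.93, -2.33 and -2.35. With local backgrounds as measured its call was lost at -1.19, and with the Feature Extraction signals it was called at -5.42. Spike-in scaling gave -1.51, still called.

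IL1A, the other interleukin-1, had log2 ratios of -0.72, -0.67, -0.80 and -1.01 and was 1.74-fold lower (-0.80 ± 0.05 SE, n = 4, limma adjusted p = 8.66e-07). Its call was lost with local backgrounds as measured (-0.46) and with spike-in scaling (-0.13). IL33, an alarmin of the same family, was 1.90-fold lower (-0.92 ± 0.08 SE, n = 4, limma adjusted p = 4.64e-06), and its other probe gave -1.61. IL18, also of that family, was 1.60-fold lower (-0.68 ± 0.05 SE, n = 4, limma adjusted p = 1.32e-06), and -0.01 with spike-in scaling.

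The 3 upstream genes that were not lower are named here after their values were seen. TNF, the other classical inducer of CXCL8, had a log2 fold change of 0.12 ± 0.05 (SE, n = 4, limma adjusted p = 0.0754). TLR5, the flagellin receptor, had 0.02 (limma adjusted p = 0.761). TLR2, a receptor for bacterial lipopeptides, was 1.28-fold higher in grade 3 (0.36 ± 0.07 SE, limma adjusted p = 0.00202), with a positive ratio on 3 of 4 arrays, and the call was lost without a dye term and with local backgrounds as measured.

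Of 25 listed transcription factors and regulators of the NF-kB, AP-1 and C/EBP families, 2 were measured. NFKB1, the p105 precursor of an NF-kB subunit, was 1.21-fold lower (-0.27 ± 0.05 SE, n = 4, limma adjusted p = 0.00107), but was not called with median centring (-0.03) and was higher with spike-in scaling (0.40). FOSB, an AP-1 subunit, had a log2 fold change of 0.09 (limma adjusted p = 0.154). Of 14 MAP kinases and mRNA stability factors, 3 were measured, with 2 lower and 1 not called. Without either array with grade 1 in Cy5, without a dye term and with median centring 1 was lower, and with spike-in scaling 3 were higher. MAPK14, the p38 kinase that prolongs the life of CXCL8 mRNA, was 1.30-fold lower (limma adjusted p = 0.000134), and higher with spike-in scaling (0.29). The spike-in values of NFKB1 and MAPK14 both lay below the median of 0.67 of all probes under that setting. MAP2K1, a kinase within the MAP kinase cascade, had 0.01 (limma adjusted p = 0.878).

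Genes that the same signals are known to induce together with CXCL8 were more often measured, 20 of 31 listed. Of these 15 were lower, 1 higher and 4 not called, with a median log2 fold change of -0.90, against -0.09 for all named genes. With spike-in scaling the median was -0.24, with 11 lower and 8 higher, and with local backgrounds as measured 9 were lower. MMP3, also among the genes most like CXCL8, had log2 ratios of -2.52, -2.34, -2.37 and -2.61 and was 5.51-fold lower (-2.46 ± 0.06 SE, n = 4, limma adjusted p = 1.16e-09). IL6, the cytokine that drives the acute-phase response, had log2 ratios of -1.62, -1.72, -1.55 and -1.67 and was 3.11-fold lower (-1.64 ± 0.05 SE, n = 4, limma adjusted p = 6.18e-09), while its other probe gave -0.96. The ratios of both genes were alike on all 4 arrays, yet their calls were lost with local backgrounds as measured, at -1.50 for MMP3 and -0.95 for IL6. With the Feature Extraction signals both were called, at -3.42 for MMP3 and -2.32 for IL6.

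CCL7, a monocyte chemokine, was 3.50-fold lower (-1.81 ± 0.05 SE, n = 4, limma adjusted p = 4.81e-09), a call that was likewise lost with local backgrounds as measured (-1.14). PTGS2, the inducible prostaglandin synthase, was 2.45-fold lower (-1.30 ± 0.06 SE, n = 4, limma adjusted p = 6.93e-08). The genes of the list that were not lower were few and are named after their values were seen. SELE, the endothelial adhesion molecule E-selectin, was 1.26-fold higher (0.33 ± 0.07 SE, limma adjusted p = 0.00251), with a positive ratio on 3 of 4 arrays, while its other probe gave -0.001. The 2 settings that ended the call of TLR2 ended this one too. VEGFA had a log2 fold change of -0.06, with -0.79 for its other probe, and CCL13, ICAM1 and LIF had -0.01, 0.03 and 0.06, with limma adjusted p between 0.386 and 0.900 for these 4. The other ICAM1 probe gave -0.22 (limma adjusted p = 0.00229).

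**Figure D4:**
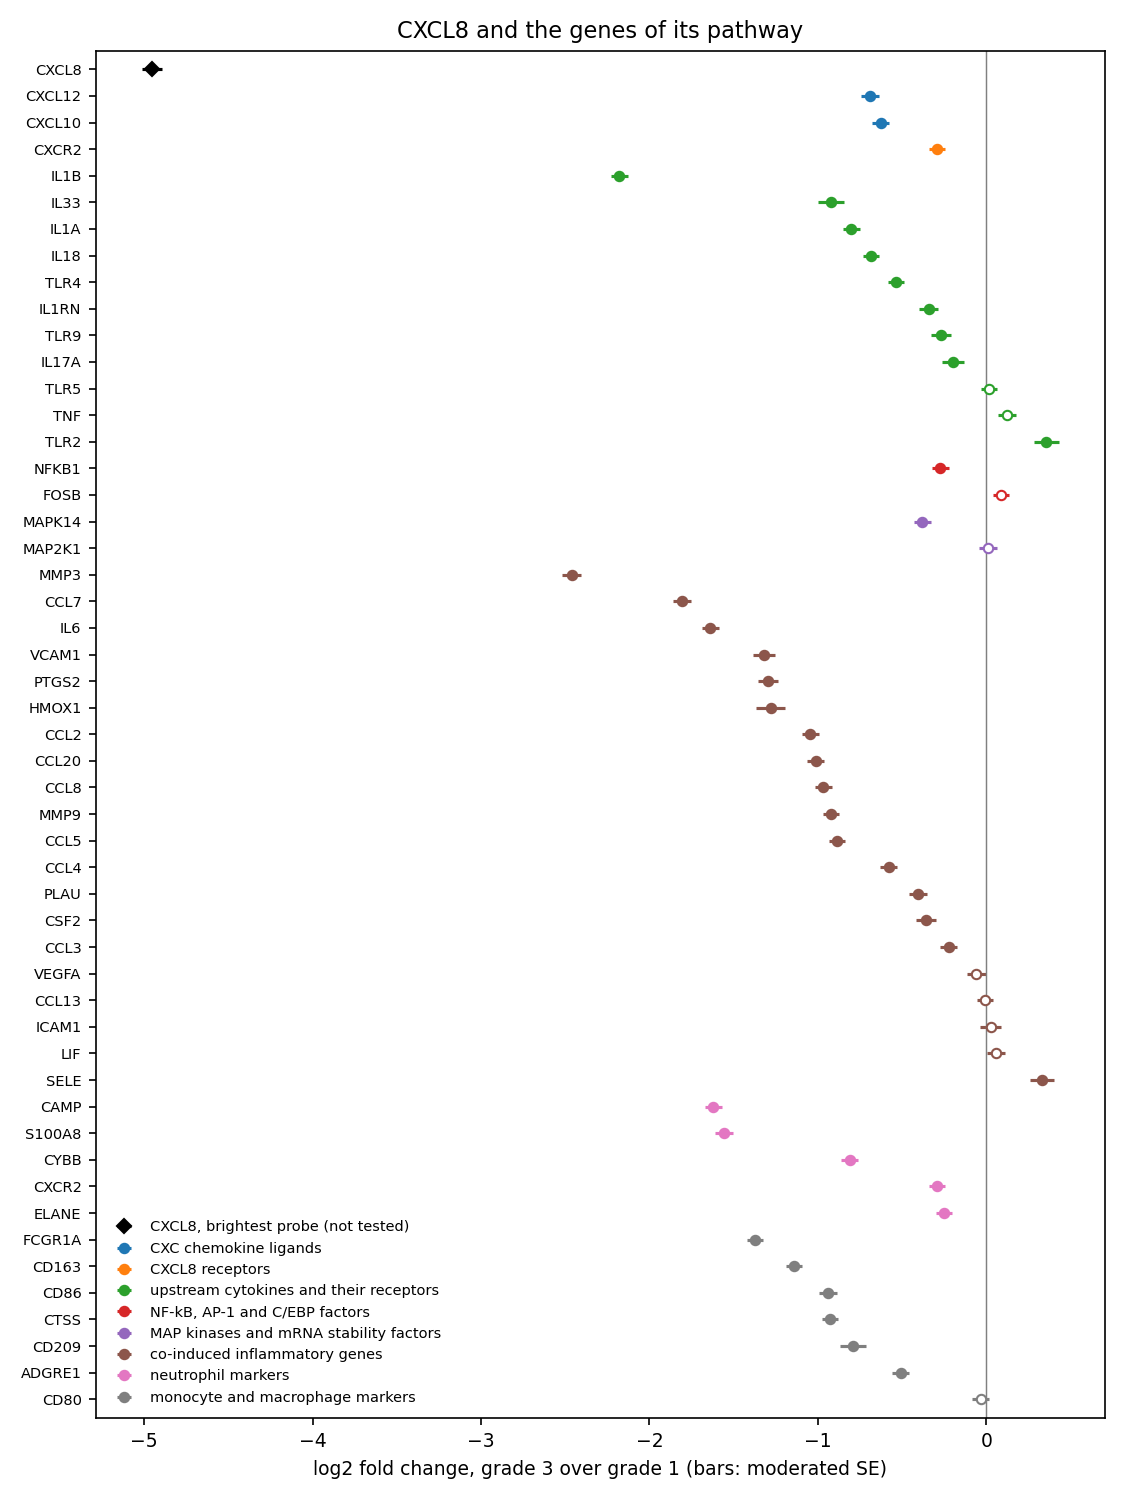
Log2 fold change of grade 3 over grade 1 with its moderated SE for CXCL8 (black diamond, brightest probe, not tested) and for the reported genes of its pathway and of the neutrophil and macrophage marker lists, coloured by list. Filled circles passed an adjusted p under 0.05, open circles did not, and IL1B is drawn at its fitted value of -2.18 although grade 3 was at background. CXCL8 lies at -4.95 and the next lowest gene drawn, MMP3, at -2.46.

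Cell type markers were read from lists of the same kind. Of 31 neutrophil markers listed, 6 were measured and all 6 were lower in grade 3, with a median log2 fold change of -0.79. CAMP, the cathelicidin of neutrophil granules, was 3.08-fold lower (limma adjusted p = 7.60e-09), and S100A8, a calcium-binding protein abundant in neutrophils and monocytes, 2.94-fold lower (limma adjusted p = 1.12e-08). CYBB, a part of the phagocyte oxidase, was 1.75-fold lower (limma adjusted p = 8.03e-07). The changes of ELANE, the neutrophil elastase gene, and of CXCR2 were smaller. ELANE, named after its value was seen, was 1.19-fold lower (limma adjusted p = 0.00143), and CXCR2 1.22-fold lower as given above. With spike-in scaling the median was -0.12, with 2 lower and 2 higher, and the call of CYBB (-0.14) was lost. With local backgrounds as measured 4 of the 6 were lower. The summed level of the 6 was 17417 to 19730 units in grade 3 and 49660 to 52997 in grade 1, and all 6 were above background in both grades. S100A8 alone made up 80.4% to 81.7% of that sum in grade 3 and 86.8% to 87.8% in grade 1. Such sums add probes that bind with unequal strength, so each is led by its brightest probes. The part of these cells in the CXCL8 ratio was not tested.

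Of 20 monocyte and macrophage markers, 7 were measured, with 6 lower and 1 not called and a median of -0.93, or -0.26 with spike-in scaling. With local backgrounds as measured 5 were lower. FCGR1A, the high-affinity IgG receptor, was 2.59-fold lower (limma adjusted p = 1.19e-08), and CD163, the haemoglobin scavenger receptor, 2.21-fold lower (limma adjusted p = 4.19e-08). CD86, a costimulatory ligand, was 1.92-fold lower (limma adjusted p = 3.02e-07), and CTSS, a lysosomal protease of antigen-presenting cells, 1.90-fold lower (limma adjusted p = 1.56e-07). CD80, named after its value was seen, had a log2 fold change of -0.03 (limma adjusted p = 0.587) by its brightest probe, while its other probe was 1.52-fold lower (-0.61, limma adjusted p = 7.06e-06). The summed level of the 7 was 23618 to 25611 units in grade 3 and 46841 to 51313 in grade 1, all above background in both. Their part in the CXCL8 ratio was not tested.

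Of 20 mammary epithelial markers listed, 7 were measured, with 4 higher, 1 lower and 2 not called, and a median log2 fold change of 1.18. The milk protein genes CSN2 and LALBA were 7.03-fold and 5.66-fold higher in grade 3 (limma adjusted p = 1.06e-09 and 8.84e-10). The size for CSN2 differed by orientation, with log2 ratios of 3.59 and 3.21 with grade 3 in Cy5 and 2.27 and 2.19 with grade 1 in Cy5. Those of LALBA were 2.44, 2.68, 2.48 and 2.40 in that order. TFF3, a secreted trefoil peptide, was 3.62-fold higher and MUC1, a mucin of the luminal surface, 2.27-fold higher (limma adjusted p = 4.28e-08 and 6.08e-08). The others, named after their values were seen, were PGR, the progesterone receptor, which was 1.49-fold lower (limma adjusted p = 4.35e-06), CLDN3 at a log2 fold change of 0.11 (limma adjusted p = 0.0818) and ERBB2 at -0.03 (limma adjusted p = 0.664). All 7 were above background in both grades, and their summed level was 368155 to 479874 units in grade 3 and 46815 to 103690 in grade 1. CSN2 alone made up 73.6% to 77.9% of that sum in grade 3 and 49.9% to 75.3% in grade 1. Their part in the CXCL8 ratio was not tested. The epithelial keratins and EPCAM were not analysed here.

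Markers of other cell types also differed between the grades in the reported processing. All 8 T and NK cell markers measured of 16 were lower, with a median of -0.39 and summed levels of 1241 to 1280 units in grade 3 and 1755 to 1915 in grade 1. With local backgrounds as measured limma called none of the 8, with 3 lower at an unadjusted p under 0.05. With spike-in scaling the median of the list turned to 0.279, with 1 lower and 5 higher, and with the Feature Extraction signals it was -0.93. ICOS, a T cell costimulatory receptor, was not well above background in grade 3 on any array and was at least 1.34-fold lower in the reported processing. Its own grade 3 signal lay above the lowest signal well above background, so this bound equals its fitted fold, and with the Feature Extraction signals its log2 fold change was -1.81. With local backgrounds as measured ICOS lost its call at -0.21, and with spike-in scaling it turned to 0.25. All 4 endothelial markers measured of 11 were lower, with a median of -0.57 and sums of 36179 to 44030 units in grade 3 and 46488 to 55200 in grade 1, while with spike-in scaling 1 was lower and 1 higher. Of 12 fibroblast and matrix markers 5 were measured and 4 were lower, with a median of -0.54 that turned to 0.123 with spike-in scaling (1 lower, 2 higher), and sums of 308010 to 400230 units in grade 3 and 480364 to 550548 in grade 1. The fifth, PDGFRB, a receptor of fibroblasts and pericytes named after its value was seen, had a log2 fold change of 0.08 (limma adjusted p = 0.163), and its other probe -0.16 (limma adjusted p = 0.0127). The list median of -0.54 is the value of the brightest COL1A2 probe. Its log2 ratios were -0.06 and 0.32 with grade 3 in Cy5 and -1.28 and -1.17 with grade 1 in Cy5. The call was lost without a dye term (limma adjusted p = 0.149), while all 6 COL1A2 probes gave -0.64 to -0.54. COL1A1 had ratios of -1.47 and -1.80 with grade 3 in Cy5 and -0.65 and -0.73 with grade 1 in Cy5. DCN and TNC were negative on all 4 arrays.

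Skeletal muscle markers were higher in grade 3, with 7 of the 8 measured of 13 higher and 1 lower, a median of 1.95 and sums of 24614 to 27861 units in grade 3 and 7687 to 8453 in grade 1. The count takes the brightest probe of each gene. For TCAP and DMD, counted higher and named after their values were seen, the probes did not agree. Of 4 TCAP probes 1 was called higher and 2 lower, and of 10 DMD probes 5 were called higher and 3 lower. MYH2, a fast muscle myosin, was 23.4-fold higher (limma adjusted p = 1.50e-11) by its brightest probe, with log2 fold changes of 0.40 to 4.55 over its 5 probes and 2.58 for their mean. The lower one, DES, named after its value was seen, had a log2 fold change of -0.14 (limma adjusted p = 0.0344), a call lost without replicate 2 with grade 3 in Cy5, without either array with grade 1 in Cy5, without a dye term, with spike-in scaling and with local backgrounds as measured. Keratinocyte markers were also higher, with all 5 measured of 10 higher, a median of 0.85 and sums of 38155 to 43487 units in grade 3 and 21800 to 24616 in grade 1. With local backgrounds as measured 3 of the 5 were higher and the median was 0.56, and the calls of KRT2 (0.11) and KLK5 (0.45) were lost. The part of any of these cell types in the CXCL8 ratio was not tested.

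Other processing left the direction of the CXCL8 ratio as it was and changed its size. The value standing for the gene lay between -5.18 (mean of the 4 probes) and -4.29 (brightest probe) on the log2 scale over 17 alternatives. A_11_P053416 lay between -5.33 and -4.43, A_11_P053586 between -5.88 and -4.97 and A_11_P054906 between -5.12 and -4.34, over 16 alternatives each. Scaling to spike-in controls gave the smallest fold of all, 19.5-fold lower for the brightest probe.

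**Figure D5:**
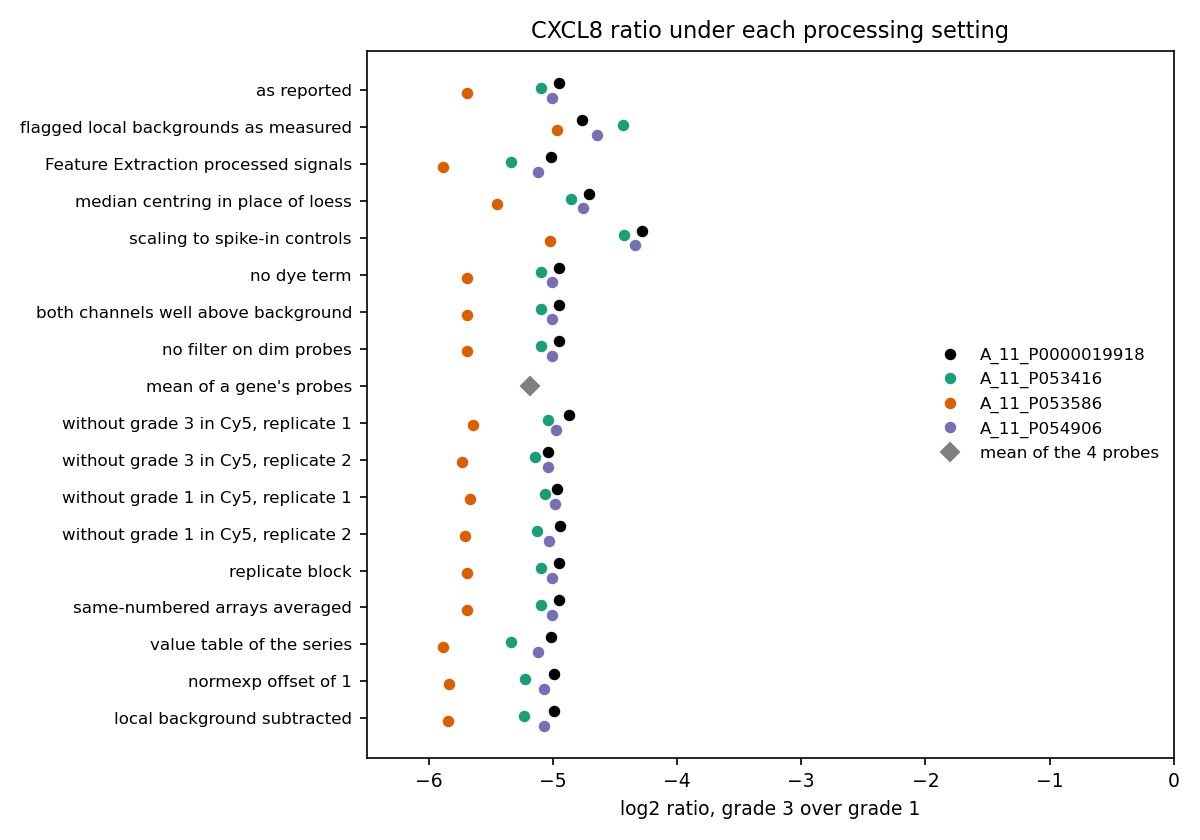
Log2 ratio of grade 3 over grade 1 of each CXCL8 probe as reported and under each alternative processing setting, with the mean of the 4 probes as a grey diamond. Every value lies between -5.88 and -4.29, with the values closest to 0 under spike-in scaling for all probes except A_11_P053586.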

How the data were processed

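Per the submitters' processing notes, the scans were quantified in Agilent Feature Extraction 10.7.3.1. Spot medians and local backgrounds were deposited as linear intensity values. The deposited log ratios are log10 of Cy5 over Cy3 processed signal, and the deposited error of each ratio is a score of Feature Extraction on the log10 scale. The series' deposited value table holds the same log10 ratios turned to grade 3 over grade 1 (largest difference 4.99e-06, column medians 0).

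In R 4.3.3 with limma 3.58.1, local backgrounds marked as outliers (151 to 2352 per array and channel, up to 309565 units) took the channel's median value on that array. Normexp with an offset of 50 and loess followed, with control spots at weight 0 and 11 to 39 marked spots per array left out. The fit had a grade and a dye term, moderation by eBayes (residual df 2, prior df 7.50), two-sided tests and Benjamini-Hochberg adjustment over 35410 probes, and was tested on simulated data. Levels are single-channel log2 values after Aquantile, with the SD over 4 arrays. Depth on arrays is signal over background: median signals were 289 to 402 units in Cy5 on backgrounds of 39 to 41, and 215 to 354.5 in Cy3 on 28 to 32. The number of arrays limits the precision.

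Probes were named through their RefSeq accession in the table of UU_Cfam_GSD_1.0, which matched 1644 of 1740 probes with an mRNA accession. No probe sequences or genome were used here. The naming rule takes CXCL8, all measured CXC ligands and CXCL8 receptors, all measured genes of other lists with at most 5 and otherwise the 4 with the smallest p, and the 5 most like CXCL8. Several genes this rule takes are not named in the text, though the list counts hold them. Members, lists and the replacement of backgrounds were chosen with earlier results of these data known. The alternatives were other background corrections, normalizations, dye terms, filters, probe rules and replicate sets, with an offset of 1 and plain background subtraction added after seeing the data. The Feature Extraction signals and the deposited value table hold the same ratios but are counted as separate alternatives.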

Additional observations from a re-analysis of the deposited data

Results flagged for a closer look

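Over 55 probes and genes taken by the naming rule, not all of them named in the text, the 4 arrays were searched for one that stood apart, by the gap of the highest or lowest log2 ratio to its nearest neighbour as a share of the range (Dixon's 95% critical value), and 2 exceeded it where chance flags about 1 group in 20. TFF3 had a share of 0.890: replicate 2 with grade 3 in Cy5 gave 1.45, against 1.97, 1.97 and 2.03 on the other arrays. CTLA4, an inhibitory T cell receptor, had a share of 0.907: the same array gave -0.57, against -0.84, -0.84 and -0.82. That array also gave the CXCL8 ratio closest to 0 for all 4 probes, none of which exceeded the critical value.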

How the results depend on the processing

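All 4 CXCL8 probes stayed below -4 under every alternative run. The value standing for the gene ranged from -5.18 (mean of the 4 probes) to -4.29 (brightest probe) over 17 alternatives. Leaving out single arrays gave -5.04 to -4.87 for the brightest probe, -5.15 to -5.04 for A_11_P053416, -5.73 to -5.65 for A_11_P053586 and -5.04 to -4.97 for A_11_P054906. Values that moved by more than the SD over arrays, with probes in that order, were -4.77, -4.43, -4.97 and -4.65 with local backgrounds as measured, -4.29, -4.43, -5.02 and -4.34 with spike-in scaling, and -4.71 for the brightest with median centring. The cause was not tested.

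Dye terms of A_11_P053416, A_11_P053586 and A_11_P054906 were not called at 0.47, 0.57 and 0.32 with local backgrounds as measured, 0.33, 0.39 and 0.24 with both the processed signals and the deposited value table, and 0.30, 0.38 and 0.24 with plain subtraction. That of A_11_P054906 was also not called at 0.29 with spike-in scaling and 0.25 with an offset of 1. Leaving out single arrays gave -0.05 to 0.12, 0.24 to 0.34, 0.33 to 0.41 and 0.20 to 0.27 for the 4 probes, and the call of A_11_P054906 was lost without either array with grade 1 in Cy5. A_11_P0000019918 was called with median centring (0.24).

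Over all probes 11028 were higher and 10800 lower, against 2327 and 4418 with local backgrounds as measured and 32258 and 917 with spike-in scaling, while median centring gave 15629 and 8835. Single arrays left out gave 9088 to 10968 higher and 9000 to 10797 lower.

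In limma's list counts, local backgrounds as measured left 3 upstream, 9 co-induced, 4 neutrophil and 5 macrophage genes lower. That setting left 0 MAP kinases lower (2 at an unadjusted p under 0.05), and 0 receptors lower and 0 upstream and co-induced genes higher (0 unadjusted). Median centring gave 2 upstream, 1 NF-kB family, 1 MAP kinase, 3 co-induced and 1 macrophage gene higher, with 1 MAP kinase and 0 NF-kB family genes lower (0 unadjusted). Spike-in scaling gave 6 upstream, 1 receptor, 2 NF-kB family, 3 MAP kinase, 8 co-induced, 2 neutrophil and 1 macrophage gene higher, 2 upstream and 2 neutrophil genes lower, and 0 CXC ligands, receptors, NF-kB family genes, MAP kinases and epithelial markers lower (0 unadjusted). Without a dye term 1 MAP kinase was lower and 0 upstream and co-induced genes were higher (1 upstream gene unadjusted). Leaving out single arrays gave 1 to 2 MAP kinases lower, 7 to 8 upstream and 14 to 15 co-induced genes lower, 1 to 2 upstream and 4 to 5 epithelial genes higher, and 6 neutrophil, 6 macrophage, 2 CXC ligand and 1 each of receptor, NF-kB family and epithelial genes lower in every case, with 1 co-induced gene higher.

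Of the 51 other genes taken by the naming rule, over 17 alternatives, 824 values kept their call and direction, 24 lost the call, 6 gained one and 11 turned. With spike-in scaling CXCL10 (0.041), CXCR2 (0.38), NFKB1 (0.40), MAPK14 (0.29), CD28 (0.19), ICOS (0.25), VWF (0.37), KDR (0.054), EDNRB (0.14), COL1A2 (0.12) and DCN (0.32) turned, as did the list medians of upstream (0.325), T and NK cell (0.279) and fibroblast genes (0.123). All these values lay below the median of 0.67 of all probes under that setting.

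The replicate block changed no call of a gene taken by the naming rule and gave 10914 probes higher and 10633 lower, with CXCL8 at -4.95. Replicate numbers are shared across orientations, but same-numbered arrays did not deviate together (r = -0.0909 over 35376 probes), and what else they may share is not given in the labels. Signal over background limits IL1B and ICOS to a bound, which holds for the reported processing only.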
